A study of Oryza sativa with 6 samples.

Results

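In rice leaf blades, 157 of 17905 genes measured on Affymetrix rice arrays shifted strongly, and in the same direction, on the replicate 2 arrays of 2 transgenic lines at once. They were chosen by their measured values. Intensities were put on the scale log2(intensity + 16), each gene was represented by its probe set with the highest mean over the 6 arrays, and the shift of a line was its replicate 2 value minus the mean of its replicates 1 and 3. A gene was taken when its shift passed 2 in size, a 4-fold difference, in both lines with the same sign. There were 97 genes higher on replicate 2 (the rising genes, 0.542% of all genes) and 60 lower on it (the falling genes, 0.335%). The shifts chose the genes, so they are given below as a description, with no test.

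The first line overexpressed Os-LBD37, which by its name encodes a LOB-domain transcription factor, and is the single line RK16331-13. The other carried the empty vector and served as its control. Plants of both lines were hygromycin-resistant and grew in hydroponic culture, and the 5th and 6th leaf blades were sampled at a time set by the emergence of the 8th leaf blade. Each line had 3 arrays, numbered 1 to 3. The groups follow the titles and source names; the description of the overexpressor samples names the control. Nothing says that the arrays came from separate plants, so the p-values cover the spread among these arrays alone, which may be technical. The sources used here do not give the promoter of the construct, the hour of harvest or the lighting. Os-LBD37 itself matched no name in the tables, and its level was not analysed here.

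The plant circadian clock is a loop of transcription factors that are made at set times of day and repress one another. CCA1 is a MYB factor made around dawn, the PRR proteins follow one after another through the day, and GI and the GARP factor OsPCL1, the rice counterpart of Arabidopsis LUX, belong to the evening. In leaves the loop sets the hours at which many genes of chlorophyll synthesis, photosynthesis, nitrate and sulfate assimilation and sugar handling are made. Transcripts of such genes can therefore differ several-fold between samples taken at different hours.

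Across the arrays, 50.9 to 55.4% of probe sets were above background, taken on each array as the 95th percentile of controls that match no rice transcript. Correlations of log2 values over genes were 0.98 between replicates 1 and 3 within each line, and 0.94 to 0.95 between replicate 2 and the other 2 arrays of its own line. The replicate 2 arrays of the 2 lines had a correlation of 0.93 with each other. Replicate 2 of one line had 0.91 to 0.93 with replicates 1 and 3 of the other line. Between the lines, replicates 1 and 3 had 0.95 to 0.96. RNA quality was read from controls placed at both ends of a transcript: their mean log2 ratio of 3 prime over 5 prime signal was 1.52 on overexpressor replicate 2, against 1.13 and 0.52 on its replicates 1 and 3. It was 2.07 on empty vector replicate 2, against 0.81 and 0.61 on replicates 1 and 3. The ratio was thus highest on replicate 2 in each line, and its part in the shifts was not tested.

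The shifts of the 2 lines had a Pearson correlation of 0.40 over all 17905 genes, a description of 6 arrays on which genes are not independent. A shift past 2 in size was found for 684 genes in the overexpressor and 510 in the empty vector line. Of these, 290 in the overexpressor and 193 in the empty vector line had a shift under 1 in size in the other line. A further 6 genes passed 2 in opposite directions. The shared genes therefore sat beside others that shifted in 1 line alone. The median shift over all genes was -0.06 in the overexpressor and -0.03 in the empty vector line.

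**Figure D1:**
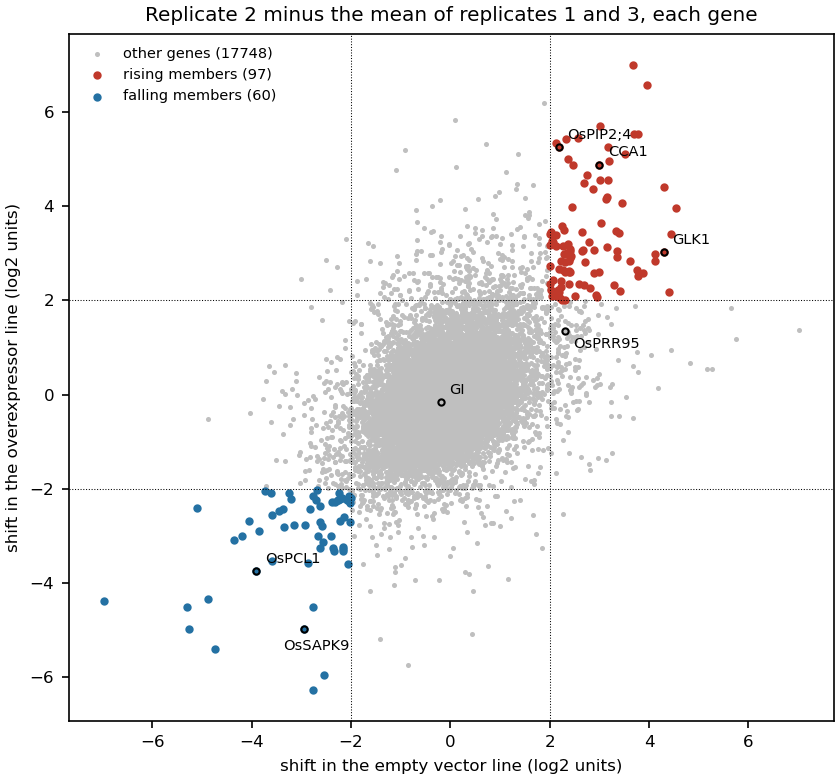
Shift of each gene, replicate 2 minus the mean of replicates 1 and 3, in the overexpressor (vertical axis) and the empty vector line (horizontal axis), both in log2 units. Red points are the 97 rising genes, blue points the 60 falling genes and grey points all others; dotted lines mark a shift of 2 in size, and black rings mark named genes, among them CCA1 at the upper right and OsPCL1 at the lower left.

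The clock genes CCA1 and OsPCL1 were members, on opposite sides. CCA1 had intensities of 18627 on overexpressor replicate 2, 611 and 624 on overexpressor replicates 1 and 3, 5241 on empty vector replicate 2, and 602 and 682 on empty vector replicates 1 and 3. It was higher on replicate 2 by 29.4-fold in the overexpressor and 8-fold in the empty vector line, while its other 4 arrays lay between 602 and 682. OsPCL1 had intensities of 1275 on overexpressor replicate 2, 16866 and 17834 on overexpressor replicates 1 and 3, 1401 on empty vector replicate 2, and 20086 and 22354 on empty vector replicates 1 and 3. It was lower on replicate 2 by 13.4-fold in the overexpressor and 15-fold in the empty vector line. In each line the replicate 2 value of both genes stood outside the range of replicates 1 and 3, and those 2 arrays differed little. A second CCA1 probe set was not above background on any array.

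The other 5 measured clock genes did not pass the rule. OsPRR95, a PRR gene of the daytime series, had 21599.9 on overexpressor replicate 2, 4766 and 14979 on overexpressor replicates 1 and 3, 23786 on empty vector replicate 2, and 3832 and 5974 on empty vector replicates 1 and 3. Its shifts were 1.35 in the overexpressor and 2.31 in the empty vector line, so it passed 2 in the empty vector line only. OsPRR73 had shifts of 1.10 in the overexpressor and 1.50 in the empty vector line and was highest on replicate 2 in each line. DTH7, a PRR gene that also acts on heading date, had shifts of 0.16 in the overexpressor and 1.11 in the empty vector line. OsPRR1, the rice counterpart of Arabidopsis TOC1, had -0.63 in the overexpressor and 0.49 in the empty vector line. GI, which links the clock to flowering, had 12583 on overexpressor replicate 2, 13892 and 14363 on overexpressor replicates 1 and 3, 14169 on empty vector replicate 2, and 15737 and 16744 on empty vector replicates 1 and 3, with shifts of -0.17 in the overexpressor and -0.20 in the empty vector line. Among the clock genes, then, the dawn gene and 1 evening gene shifted most.

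The rule did not set replicates 1 and 3 apart, so their difference describes the same genes without it. All 7 measured clock genes were higher on replicate 3 than on replicate 1 in both lines, some of them only slightly. The difference of log2 values was largest for OsPRR95, at 1.65 in the overexpressor and 0.64 in the empty vector line, and for OsPRR73 it was 0.58 and 0.55. For CCA1 it was 0.03 in the overexpressor and 0.18 in the empty vector line, for OsPCL1 0.08 and 0.15, and for GI 0.05 and 0.09. Replicate 3 was above replicate 1 in both lines for 25 of 97 rising genes, or 25.8%, for 27 of 60 falling genes, or 45%, and for 23.6% of all genes. It was below replicate 1 in both lines for 19.6% of rising genes, 13.3% of falling genes and 32.8% of all genes. The difference rests on 1 array per line and number and was not tested.

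**Figure D2:**
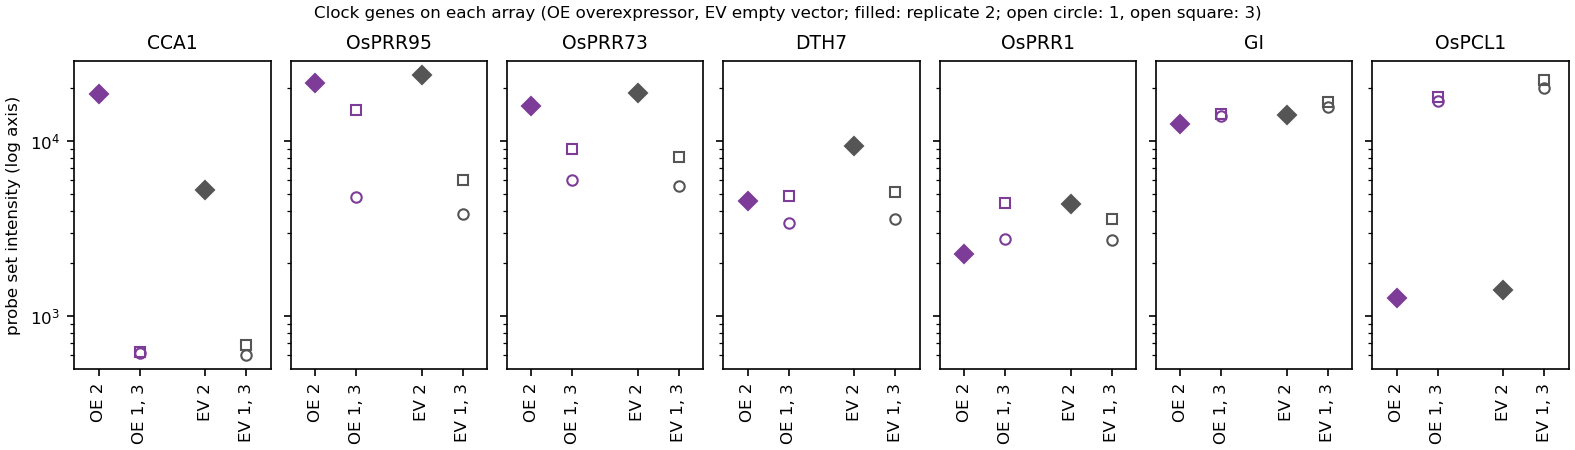
Probe set intensity (log axis) of the 7 measured clock genes on each array, with the overexpressor (OE) left of the empty vector line (EV); filled diamonds are replicate 2, open circles replicate 1 and open squares replicate 3. CCA1 is high and OsPCL1 low on both replicate 2 arrays, and GI is nearly level.

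Over the 97 rising genes, the median shift was 3.05 in the overexpressor and 2.59 in the empty vector line. Shifts reached 4.54 in the empty vector line, for LOC4351693, and 6.57 in the overexpressor, for LOC4328240, among genes above background on replicate 1 or 3. For 4 rising genes in the overexpressor and 6 in the empty vector line neither of those arrays was above background, so their shifts there are only lower bounds. The median intensity was 4230 on overexpressor replicate 2, against 324 and 361 on replicates 1 and 3. In the empty vector line it was 2376 on replicate 2, against 281 and 330 on replicates 1 and 3. The shift was the larger one in the overexpressor for 68 of the 97 genes. Both shifts passed 3, an 8-fold difference, for 23 genes. The rule itself puts every rising gene above background on both replicate 2 arrays, and 81 of the 97 were above it on all 6 arrays. Only 18 carried a gene name. By their type, the probe sets of 28 of the 97 rising and 9 of the 60 falling genes could bind several transcripts, of the same gene or of others. Among them were those of CCA1, GLK1, CHLH, CAO, APR-like1, OsSWEET2b, OsSAPK9 and MRL7.

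Several named rising genes act in chloroplast building and chlorophyll synthesis. GLK1 is a GARP transcription factor that turns on genes of chlorophyll synthesis and light harvesting. Its intensities were 2903 on overexpressor replicate 2, 297 and 394 on overexpressor replicates 1 and 3, 11289 on empty vector replicate 2, and 681 and 454 on empty vector replicates 1 and 3. It was brightest on empty vector replicate 2, and its shifts were 3.02 in the overexpressor and 4.30 in the empty vector line. CHLH, the large subunit of the magnesium chelatase that starts the chlorophyll branch, had 10862 on overexpressor replicate 2, 1569 and 1849 on overexpressor replicates 1 and 3, 9418 on empty vector replicate 2, and 1812 and 2355 on empty vector replicates 1 and 3. CAO, the oxygenase that makes chlorophyll b, had 9931 on overexpressor replicate 2, 1158 and 1655 on overexpressor replicates 1 and 3, 8038 on empty vector replicate 2, and 607 and 681 on empty vector replicates 1 and 3. CHLH was higher on replicate 2 by 6.33-fold in the overexpressor and 4.53-fold in the empty vector line, and CAO by 7.1-fold in the overexpressor and 12.2-fold in the empty vector line. OsPSAG, a subunit of photosystem I, had 10876 on overexpressor replicate 2, 761 and 1066 on overexpressor replicates 1 and 3, 6045 on empty vector replicate 2, and 1615 and 987 on empty vector replicates 1 and 3. For OsPSAG the shifts were 3.57 in the overexpressor and 2.24 in the empty vector line, and a second probe set shifted by 0.78 and 0.63. EGY3, named for a family of chloroplast membrane metalloproteases, had shifts of 2.33 in the overexpressor and 2.69 in the empty vector line.

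These were a minority of their pathways. In the list of chlorophyll synthesis and breakdown, 2 of 11 measured genes were rising members, beside 0.542% of all genes, and none was a falling one. The median shift of the list was 0.06 in the overexpressor and 0.13 in the empty vector line. CHLP, the reductase that makes the phytyl tail of chlorophyll, had shifts of 1.48 in the overexpressor and 1.51 in the empty vector line, while the chlorophyll synthase gene CHLG had -1.18 in the overexpressor and -1.38 in the empty vector line. Among 8 light harvesting and photosystem genes, OsPSAG was the 1 member. The light harvesting gene LHCP had shifts of 1.47 in the overexpressor and 1.75 in the empty vector line. Of the 8 genes, 6 were above 0 in both lines and 1 below. Among probe sets that did not represent their gene, 24.1% were above 0 in both lines. It was 23.9% for those above background on 3 or more arrays. The 8 genes were read on the brightest probe set of each, so this is not a matched background. The summed intensity of 14 leaf blade marker genes, of which 12 were above background on all arrays, was highest on replicate 2. It was 178636 on overexpressor replicate 2, against 117790 and 117824 on its replicates 1 and 3, and 203888 on empty vector replicate 2, against 158222 and 158023. A sum is weighted to the brightest genes, and the median shift of the leaf list was 0.35 in the overexpressor and 0.43 in the empty vector line. The leaf list was drawn largely from the same light harvesting and photosystem families, OsPSAG among them, so the 2 lists are not separate. These lists were made with earlier results of these data known.

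Single genes of nitrate, sulfate and mineral handling were rising members. NIA1, a nitrate reductase gene, had 17064 on overexpressor replicate 2, 1334 and 1688 on overexpressor replicates 1 and 3, 5254 on empty vector replicate 2, and 1377 and 825 on empty vector replicates 1 and 3. It was higher on replicate 2 by 11.3-fold in the overexpressor and 4.87-fold in the empty vector line. NIA1 was the only member among 20 measured nitrogen genes, whose median shift was 0.49 in the overexpressor and -0.09 in the empty vector line. APR-like1, named after the reductase of sulfate assimilation, had 7465 on overexpressor replicate 2, 279 and 432 on overexpressor replicates 1 and 3, 2267 on empty vector replicate 2, and 543 and 158 on empty vector replicates 1 and 3. A second probe set of APR-like1 shifted by 4.48 and 3.20, next to 4.36 and 2.87 for the first. It was the only member among 9 measured sulfate genes, whose median shift was 0.79 in the overexpressor and -0.16 in the empty vector line. No member was among 32 iron and zinc genes or 17 phosphate genes in the lists. Over all genes 0.542% were rising and 0.335% falling, and at those shares lists of these sizes would hold few members. MRS2-A, a magnesium transporter gene, had 9486 on overexpressor replicate 2, 864 and 822 on overexpressor replicates 1 and 3, 8757 on empty vector replicate 2, and 931 and 792 on empty vector replicates 1 and 3. The MRS2-A values nearly coincided between the lines, at 9486 and 8757 on replicate 2. The gene written 0sFRO1 in the annotation, by its name a ferric reductase, had shifts of 5.11 in the overexpressor and 3.51 in the empty vector line.

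Other rising members act in sugar and water transport and on auxin. OsSWEET2b, a sugar transporter of the SWEET family, had 8601 on overexpressor replicate 2, 399 and 68.7 on overexpressor replicates 1 and 3, 967 on empty vector replicate 2, and 90.2 and 32.2 on empty vector replicates 1 and 3. Its shifts of 5.52 and 3.78 were the largest of the named rising genes when ranked by the smaller of the 2, and its second probe set gave 5.56 and 5.05. It was the only member among 44 sucrose and trehalose genes, whose median shift was 0.29 in the overexpressor and -0.06 in the empty vector line. OsTIP1, an aquaporin of the vacuole membrane, had 23388 on overexpressor replicate 2, 1936 and 6437 on overexpressor replicates 1 and 3, 5229 on empty vector replicate 2, and 1775 and 924 on empty vector replicates 1 and 3. OsPIP2;4, an aquaporin of the plasma membrane, had 9768 on overexpressor replicate 2, 123 and 459 on overexpressor replicates 1 and 3, 128 on empty vector replicate 2, and 26.7 and 7.50 on empty vector replicates 1 and 3. The 2 lowest OsPIP2;4 values, in the empty vector line, were not above background, so its shift there has only a lower bound. These were 2 of 24 measured aquaporin genes, beside 0.542% of all genes rising. Of the 24, 15 were above 0 in both lines and 2 below. Among probe sets of measured genes that did not represent their gene, 24.1% were above 0 in both lines. The aquaporin genes were read on the brightest probe set of each, so this is not a matched background. Lists differed in this: of 17 phosphate genes 3 were above and 8 below, and of 44 heat shock genes 7 and 11. The aquaporin median was 1.17 in the overexpressor and 0.35 in the empty vector line. GH3.2, which joins auxin to amino acids, had shifts of 4.65 in the overexpressor and 2.75 in the empty vector line and was the only member among 58 measured auxin genes. The lists of 26 cytokinin and 32 jasmonate genes held none. With 0.542% of all genes rising and 0.335% falling, few members would be in such lists.

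The remaining named rising genes have mixed roles. BGLU36, also called OsSFR2, whose Arabidopsis counterpart remodels chloroplast membrane lipids in freezing, had shifts of 3.98 in the overexpressor and 2.46 in the empty vector line. Its other probe sets gave 3.65 and 2.11, and 2.85 and 0.63, so the size in the empty vector line differed between probe sets. EXLA4, an expansin-like gene, had 3.08 in the overexpressor and 2.41 in the empty vector line. The protein kinase gene CIPK1, which acts with calcium sensors, had 2.35 in the overexpressor and 2.59 in the empty vector line and CEBIP, the receptor for chitin fragments, had 2.09 in the overexpressor and 2.04 in the empty vector line. The 6 unnamed rising genes with the largest smaller shift were LOC4339759, LOC4328240, LOC4351693, LOC4327573, LOC4334321 and LOC4332500. LOC4334321 was above background on 3 of 6 arrays and on neither overexpressor replicate 1 nor 3, so its shift is a lower bound and its place in this order is uncertain. LOC4328240 had 7826 on overexpressor replicate 2, 57.9 and 76.8 on overexpressor replicates 1 and 3, 1026 on empty vector replicate 2, and 42.1 and 61.3 on empty vector replicates 1 and 3. LOC4327573 had 23869 on overexpressor replicate 2, 691 and 361 on overexpressor replicates 1 and 3, 3333 on empty vector replicate 2, and 273 and 216 on empty vector replicates 1 and 3. On both, each replicate 2 array was far above the other arrays of its line.

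**Figure D3:**
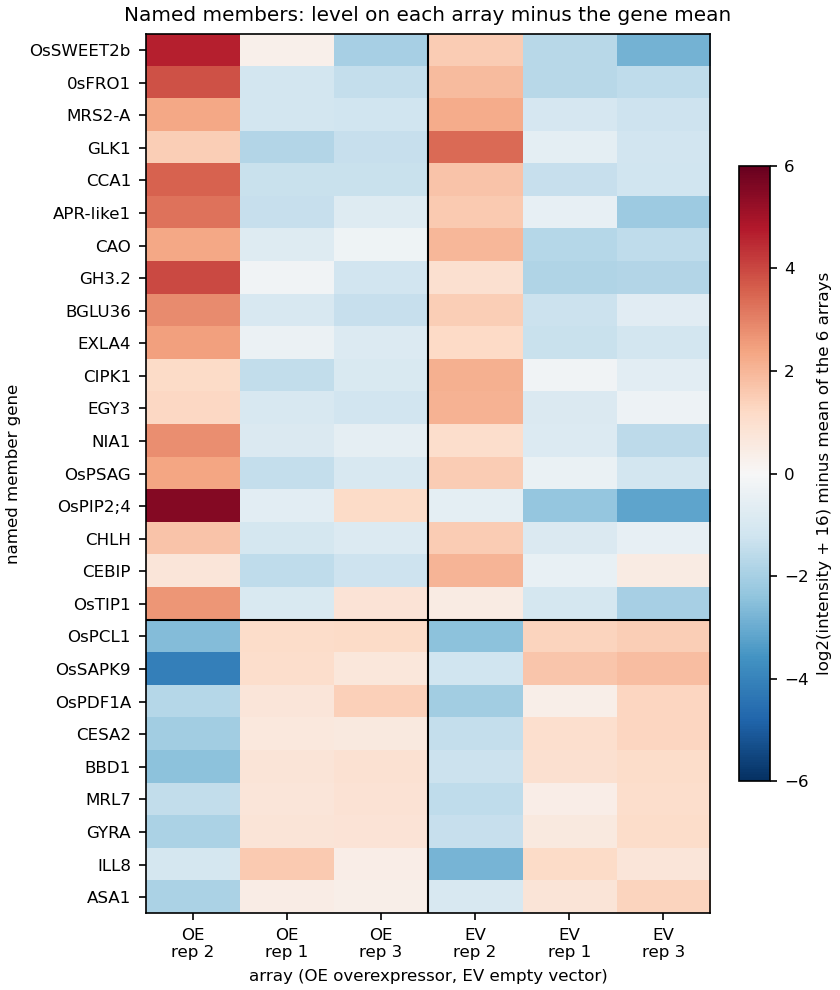
Heat map of the 27 named members (rows) on each array (columns; OE overexpressor, EV empty vector), with the colour giving log2(intensity + 16) minus the gene's mean over the 6 arrays. The 18 rising genes above the line are red on replicate 2 in each line, apart from OsPIP2;4 on the empty vector array, and the 9 falling genes below it are blue there.

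Over the 60 falling genes, the median shift was -2.71 in the overexpressor and -2.67 in the empty vector line. The median intensity was 191 on overexpressor replicate 2, against 1643 and 1821 on replicates 1 and 3. In the empty vector line it was 206 on replicate 2, against 1658 and 1723 on replicates 1 and 3. The shift was larger in size in the overexpressor for 29 of the 60 genes. The rule asks for high values on replicates 1 and 3, and all 60 were above background on every array of them. On replicate 2, 7 were above background on neither array. Both shifts passed 3 in size for 9 genes.

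The named falling genes other than OsPCL1 act in stress signalling, plastid upkeep, the cell wall and auxin supply. OsSAPK9, an SnRK2 protein kinase of abscisic acid and osmotic stress signalling, had 118 on overexpressor replicate 2, 4726 and 3721 on overexpressor replicates 1 and 3, 1002 on empty vector replicate 2, and 7304 and 8362 on empty vector replicates 1 and 3. It was lower on replicate 2 by 31.3-fold in the overexpressor and 7.69-fold in the empty vector line. OsSAPK9 was the only member among 70 measured abscisic acid genes, beside 0.335% of all genes falling. BBD1, named after a bifunctional nuclease family, had 1764 on overexpressor replicate 2, 17172 and 18379 on overexpressor replicates 1 and 3, 4032 on empty vector replicate 2, and 19339 and 21590.3 on empty vector replicates 1 and 3. Its overexpressor replicate 2 array was the lowest of the 6. BBD1 lay next to LOC4326931, another falling gene, in the gene order of assembly ASM3414082v1, with no gene between them. LOC4326931 had shifts of -2.19 in the overexpressor and -2.18 in the empty vector line. LOC4341925 and LOC4341927, both rising, had 1 gene between them. No other members were adjacent among the measured genes. How many such pairs would arise by chance was not worked out.

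Other falling genes act in organelles, auxin supply and the cell wall. GYRA, the A subunit of an organelle DNA gyrase, had 382 on overexpressor replicate 2, 2466 and 2589.5 on overexpressor replicates 1 and 3, 541 on empty vector replicate 2, and 2153 and 3115 on empty vector replicates 1 and 3. MRL7, named after an Arabidopsis gene needed for chloroplast development, had shifts of -2.24 in the overexpressor and -2.25 in the empty vector line. OsPDF1A, a peptide deformylase that trims new proteins, had -2.77 in the overexpressor and -2.92 in the empty vector line. For MRL7 and OsPDF1A the shifts of the 2 lines were nearly equal. ILL8, by its name a hydrolase that frees auxin from amino acids, had -2.04 in the overexpressor and -3.73 in the empty vector line. ASA1, the alpha subunit of anthranilate synthase in tryptophan synthesis, had -2.29 in the overexpressor and -2.02 in the empty vector line. CESA2, a cellulose synthase gene, had 23.7 on overexpressor replicate 2, 249 and 237 on overexpressor replicates 1 and 3, 46.1 on empty vector replicate 2, and 329.5 and 406 on empty vector replicates 1 and 3. A second CESA2 probe set, above background on all 6 arrays at a mean of 43.7, shifted by only 0.14 and -0.11. The gene's 2 probe sets thus differed. The second lay close to the background of 27.3 to 45.4 on the arrays, so it could show little of a fall.

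Ranked by the smaller of the 2 shifts, the first 5 falling genes had no name. LOC4340812 had 281 on overexpressor replicate 2, 9856 and 8867 on overexpressor replicates 1 and 3, 232 on empty vector replicate 2, and 8312 and 10924 on empty vector replicates 1 and 3. LOC4337388 had 243 on overexpressor replicate 2, 10713 and 11285 on overexpressor replicates 1 and 3, 882 on empty vector replicate 2, and 23231 and 24850.5 on empty vector replicates 1 and 3. LOC4330574 had 479 on overexpressor replicate 2, 10078 and 9803 on overexpressor replicates 1 and 3, 363 on empty vector replicate 2, and 10492 and 11826 on empty vector replicates 1 and 3. On all 3 the replicate 2 arrays were far below the other 4, which lay close together within each line. LOC4348520, LOC4336779 and LOC9267250 complete the first 6 without a name. LOC4336779 had 206 on overexpressor replicate 2, 6607 and 3174 on overexpressor replicates 1 and 3, 27.2 on empty vector replicate 2, and 4790.0 and 6138 on empty vector replicates 1 and 3. Its empty vector replicate 2 array was not above background, so its shift there has only a bound. The same holds for 13 falling genes in the overexpressor, CESA2 among them, and for 8 in the empty vector line, this gene included. Of flowering genes none was a member, but Hd1, a CONSTANS-like heading date gene, had 126 on overexpressor replicate 2, 660.3 and 389 on overexpressor replicates 1 and 3, 74.4 on empty vector replicate 2, and 688 and 761 on empty vector replicates 1 and 3, which gave shifts of -1.88 in the overexpressor and -3.03 in the empty vector line.

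Other probe sets of the members followed in part. Of 32 other probe sets of 25 rising genes, 28 had a shift above 0 in both lines and 12 passed 2 in both. Among all 4531 other probe sets of measured genes, 24.1% were above 0 in both lines and 31.5% below. Of the 25 rising ones above background on at least 3 arrays, all 25 had a shift above 0 in both lines and 12 passed 2 in both. With that filter, 23.9% of the other probe sets of all genes were above 0 in both lines and 33.9% below. A second probe set of NIA1 shifted by 0.16 in the overexpressor and 0.11 in the empty vector line. Its mean was 33.9, close to the background of 27.3 to 45.4 on the arrays, and it was above background on 5 of 6. The second probe sets of CCA1 and CHLH were not above background on any array, so for CCA1, CHLH, NIA1, OsPSAG and CESA2 a shift past 2 was seen on 1 probe set only. The other probe set of LOC4343709 shifted by -1.31 and -1.17, and was above background on 2 of 6 arrays. Of 11 other probe sets of 8 falling genes, 9 had a shift below 0 in both lines and 3 passed 2 in both. Of the 9 above background on at least 3 arrays, 8 had a shift below 0 in both lines and 3 passed 2 in both. Probe sets of 1 gene share its transcripts, so these are not independent samples. Among 34758 probe sets with no single gene, 43 met the rule upward and 48 downward. Over all 57194 probe sets, 159 met it upward (0.278%) and 120 downward (0.21%).

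At the threshold, the rising genes just inside were LOC4341925, LOC4340492 and LOC4351327, with smaller shifts of 2.00 to 2.01. Just outside were LOC4330408, LOC4350401 and LOC4337592, with 1.98 to 1.99. Among falling genes, LOC4326490, ASA1 and LOC4339672 were just inside at -2.01 to -2.02, and LOC4350039, LOC4344263 and LOC4328419 just outside, with the smaller shift at -1.98 for LOC4350039 and -1.99 for LOC4344263. Genes on either side of the threshold thus had nearly equal shifts. The median absolute difference of replicates 3 and 1 was 0.46 in the overexpressor and 0.41 in the empty vector line for rising genes, 0.30 and 0.39 for falling genes, and 0.26 in each line over all genes.

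Markers of other tissues differed in their pattern. The sum of 5 root markers was 3134 on overexpressor replicate 2, against 567 and 919 on replicates 1 and 3, and 1135 on empty vector replicate 2, against 858 and 836. Most of it was Lsi1, a silicon channel. Of the 5 genes, 1 was above background on all arrays and 2, OsCASP1 and Lsi2, on none. The sum of 8 floral markers was 7453 on overexpressor replicate 2, against 3032 and 1934, and 5233 on empty vector replicate 2, against 4217 and 3522. For 10 developing grain markers the sum was 3336 on overexpressor replicate 2, against 3120 and 3305. In the empty vector line it was 2878 on replicate 2, against 3628 and 2942. For 7 shoot meristem and young leaf markers, 0 of them above background on all arrays, the overexpressor sum was 216, against 127 and 146. Their empty vector sum was 101, against 169 and 143. Both sums were thus lowest on replicate 2 in the empty vector line. None of these markers was a member. The part of other tissues in the shifts was not tested, and fewer cells of a type and less RNA per cell cannot be told apart in leaf samples.

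The members were then compared between the lines. The rule did not use this contrast, but the fits hold the same arrays whose values chose the genes. The members' shares below are therefore not independent of the rule. In limma's fit without the replicate number, 93 of 17905 genes passed a Benjamini-Hochberg adjusted p of 0.05 (0.519%), and 0 of the 157 members did. At an unadjusted p under 0.05 there were 6 members, or 3.82%, against 14.2% of all genes, and the smallest adjusted p of a member was 0.139. The rule chose genes with a wide spread within each line, and that spread enters this fit's error. When the replicate number was a block in the fit, 234 genes passed (1.31%) and 7 members did, or 4.46%. In that fit 38.9% of members had an unadjusted p under 0.05, against 18.2% of all genes. With a term for replicate 2 alone, 494 genes passed (2.76%) and 16 members did, or 10.2%, and the unadjusted shares were 38.9% of members and 20.3% of all genes. Without both replicate 2 arrays, 239 genes passed (1.33%) and 4 members did, or 2.55%, and the unadjusted shares were 36.9% and 20.2%. The members' share thus lay below that of all genes in the fit without the replicate number and above it in the other 3.

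Of the 7 members that passed with the block, 6 were rising genes. LOC4351817 had 9856 on overexpressor replicate 2, 1270.5 and 1089.9 on overexpressor replicates 1 and 3, 1511 on empty vector replicate 2, and 231 and 225 on empty vector replicates 1 and 3. It was higher in the overexpressor on every pair of arrays, by 2.42 ± 0.20 in log2 units (SE; limma adjusted p = 0.0187). LOC4351693, at 29854 on overexpressor replicate 2, 1085 and 3342 on overexpressor replicates 1 and 3, 6514 on empty vector replicate 2, and 202 and 348 on empty vector replicates 1 and 3, differed by 2.58 ± 0.26 (limma adjusted p = 0.025). LOC4351327, LOC4325831 and LOC4330542 were higher in the overexpressor as well, by 2.77, 3.90 and 4.01, in that order. On the empty vector arrays LOC4325831 was above background on 1 of 3 and LOC4330542 on 2 of 3. LOC4347224 differed by -2.11 ± 0.28 in log2 units, lower in the overexpressor (limma adjusted p = 0.0425), and the falling gene LOC4327132 by -2.06 ± 0.29 (limma adjusted p = 0.0459). None of the 27 named members passed with the block. OsPIP2;4 differed by 4.04 ± 0.79 with the block (limma adjusted p = 0.081), by 4.04 with the term for replicate 2 (limma adjusted p = 0.0483), and was above background on 1 of 3 empty vector arrays.

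The clock members did not pass these tests between the lines. CCA1 differed by 0.57 ± 0.41 in log2 units with the block (SE; limma adjusted p = 0.527), and OsPCL1 by -0.24 ± 0.19 (limma adjusted p = 0.564). In limma's fit without the replicate number, 0 of the 7 measured clock genes passed, and 0 had an unadjusted p under 0.05. Of 11 chlorophyll genes 0 passed (2 unadjusted), and of 8 light harvesting and photosystem genes 0 passed (1 unadjusted). Of 20 nitrogen genes 2 were higher in the overexpressor and none was lower, beside 0.519% of all genes passed, and NIA1 was not among them. With the block, 3 nitrogen genes were higher, beside 1.31% of all genes, and the counts for the clock, chlorophyll and light harvesting genes were again 0. With the term for replicate 2, 4 nitrogen genes were higher and 1 chlorophyll gene was lower, beside 2.76% of all genes. Within replicate 2 alone, CCA1 was 1.83 higher in the overexpressor, against 0.02 within replicate 1 and -0.13 within replicate 3. The differences within replicate 2 restate the shifts that chose the genes, so they are a description. The median difference of the rising genes, overexpressor minus empty vector, was 0.85 within replicate 2, -0.04 within replicate 1 and 0.11 within replicate 3. That of the falling genes was -0.17, -0.18 and -0.39 in the same order of arrays, and the medians over all genes were 0.01, 0.00 and 0.03. Within replicate 2, 66 of the 97 rising genes were higher in the overexpressor, beside the 68 whose shift was larger there.

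**Figure D4:**
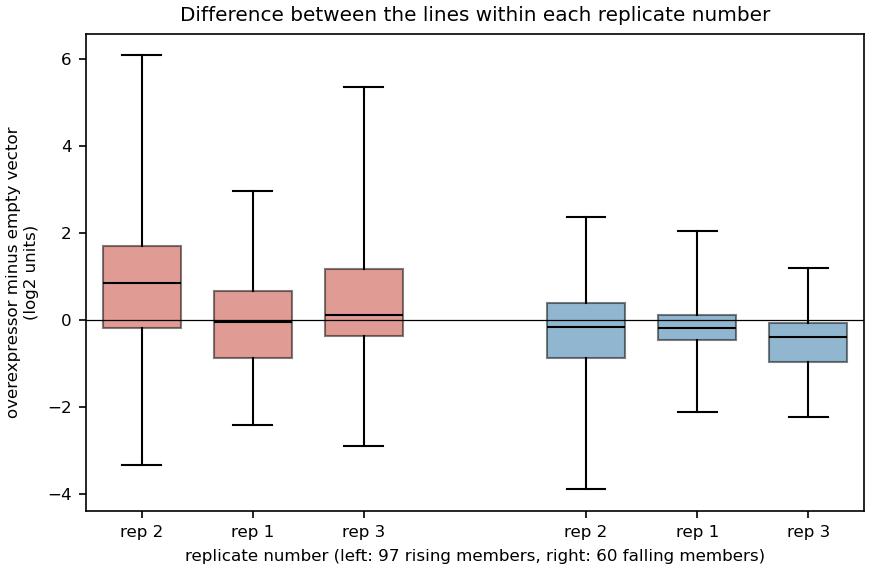
Overexpressor minus empty vector, in log2 units, within each replicate number, for the 97 rising genes (red) and the 60 falling genes (blue); boxes span the quartiles, the black line is the median and whiskers reach the lowest and highest gene. The rising genes have a median of 0.85 within replicate 2 and lie around 0 within replicates 1 and 3.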

How the data were processed

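Leaf blade RNA of 2 rice lines was measured on 6 one-colour Affymetrix arrays, from 10 µg of total RNA each. The authors deposited probe set intensity values on a linear scale. Trimmed means were near 500 on every array, while quantiles differed. The software that summarized the probes is not named in the sources used here. Precision is limited by the number of arrays.

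The 187 controls were left out. Of the other 57194 probe sets, 22436 had 1 gene, 95 several and 34663 none. Names came from the gene table of ASM3414082v1; 2458 of 17905 genes had one. Promoter sequences were not analysed here.

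The members and gene lists were chosen with earlier results of these data known; lists were matched by symbol, and false matches were removed after values were seen. Named genes are the named members, the first 6 unnamed in each direction by the smaller shift, the measured clock genes, members that passed between the lines, and the 3 genes on each side of the threshold. A few other list genes and neighbours were picked after their values were seen.

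The line difference was fitted with limma 3.58.1 in R 4.3.3 (lmFit and eBayes with a variance trend, 2-sided) on 57194 probe sets and adjusted over 17905 genes. It was tested on simulated data. Pairing by the replicate numbers of the titles was checked with each gene's deviations from its line mean: same-numbered arrays had correlations of 0.31, 0.40 and 0.24, all over 0.1, while different numbers had -0.41 to 0.27. A gene's deviations within a line cancel, so a shared replicate 2 shift alone raises the correlations among replicates 1 and 3. Overexpressor replicate 1 with empty vector replicate 3 had 0.27, above the 0.24 of replicate 3 with replicate 3. The check therefore cannot decide whether replicates 1 and 3 are paired. Block values are given as an alternative where they change a call or a list's count. Alternatives were another pseudocount, scaling, filter, threshold, probe set rule, a batch term and each array left out.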

Additional observations from a re-analysis of the deposited data

How the results depend on the processing

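The counts of members depended on how low values and the threshold were set. The 60 falling genes became 37 with a pseudocount of 64 and 122, the 60 among them, with a pseudocount of 1, and a threshold of 3 left 9 falling and 23 of 97 rising genes. Without replicate 1 or replicate 3 there were 97 to 115 rising and 67 to 72 falling genes, which held 78 and 76 of the 97 rising and 53 and 47 of the 60 falling genes. The other alternatives tried for the rule stayed within 1.5 times of the counts. Median centring moved every shift by -0.10 in the overexpressor and 0.18 in the empty vector line, and gave 102 rising and 54 falling genes. No named member's mean shift over both lines changed sign under an alternative to the rule, but some moved by over 1.5 times. With the mean of all probe sets of a gene, CCA1 had 1.98 in place of 3.94, NIA1 1.51 in place of 2.89, OsPSAG 1.81 in place of 2.91, CHLH 1.23 in place of 2.42 and CESA2 -1.32 in place of -2.66. Without probe sets of the types that can bind several transcripts, CCA1 had 0.023, on a probe set not above background on any array.

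Between the lines, the count of genes that passed was 93 in the fit without the replicate number. It was 234 with the replicate block, 494 with a term for replicate 2, 239 without both replicate 2 arrays and 169 with median centring. Leaving out 1 array gave 4 to 35: 35 without overexpressor replicate 2, 10 without its replicate 1, 4 without its replicate 3, 30 without empty vector replicate 2, 4 without its replicate 1 and 7 without its replicate 3. Members passed in 3 alternatives: 7 with the replicate block, 16 with the term for replicate 2 and 4 without both replicate 2 arrays. The block changed no call among the 27 named members. The cause of these moves was not tested. The line difference of CCA1, 0.57 with all arrays, was -0.052 when both replicate 2 arrays were left out, and -1.05 to 1.57 when 1 array was, the lowest of these without overexpressor replicate 2. That of OsPCL1, -0.24 with all arrays, was -1.54 to 1.01 when 1 array was left out, with values above 0 of 1.01 without overexpressor replicate 2, and of 0.38 and 0.45 without empty vector replicates 1 and 3. Of the 27 named members, 22 changed the sign of their line difference under at least 1 alternative.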
